A study of Bos indicus x Bos taurus with 17 samples.

Results

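Collagen chains were examined in skeletal muscle and liver of bovine fetuses at about day 105 of gestation. The chains were taken as the genes whose symbol is COL, a type number, A and a chain number, and 43 of the 21048 genes in each count table met this rule, from types 1 to 28. All 43 symbols occurred once in each table. The fetuses were F1 crosses of Bos taurus indicus (Nelore) and Bos taurus taurus (Holstein), and the labels call all of them healthy. Control-AI fetuses (n = 2, replicates 2 and 4) were conceived by artificial insemination. ART-Normal fetuses (n = 4, replicates 1 to 4) were conceived by assisted reproductive technology and had a body weight under the study's limit for overgrowth, although the study's own list of fetuses leaves out ART-Normal 4, which the labels name. Muscle and liver came from the same 6 fetuses, so 12 poly(A) RNA libraries were compared. The sex of the fetuses and the sampled muscle are not given in the sources used here, and with 2 controls any difference between conception groups rests on few animals.

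Collagens are secreted proteins in which 3 chains wind into a triple helix, and each type is built from its own chain or set of chains. Fibrillar collagens (types I, II, III, V, XI, XXIV and XXVII) form the cross-striated fibrils of connective tissue, and fibril-associated collagens (FACIT) sit on their surface. Type IV builds the sheet-like network of basement membranes, type VI forms beaded filaments around cells, and multiplexins and transmembrane collagens act at basement membranes and cell surfaces. In muscle, these proteins form the sheaths around fibers and the junction with tendon, and in liver they lie in the portal tracts, the capsule and the space along the sinusoids.

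Total counts were 12433300 to 23578362 per muscle library and 18454088 to 43339598 per liver library. Levels are given in CPM, read counts relative to library depth, after TMM scaling over all 12 libraries. The listed gene lengths were whole gene spans and no exon lengths were used, so levels of different chains were not ranked against each other. The libraries carried the markers of their labelled tissue, since the summed level of 8 skeletal muscle genes was 12765 to 21293 CPM in muscle and 2.21 to 25.3 CPM in liver, and that of 7 hepatocyte genes was 23967 to 328013 CPM in liver and 24.1 to 353 CPM in muscle. The libraries of Control-AI 2 stood apart. Its liver differed from the Control-AI 4 liver by a chi-square of 363 per gene, against 27 to 57.9 among ART-Normal livers, and its liver library held the highest hepatocyte sum and the highest muscle sum among livers, and its muscle library held the highest hepatocyte sum among muscles. The differences between conception groups with the largest folds are given with and without this fetus, and without it 30 chains still passed between tissues. Of the 43 chains, 1 lies across a gene on the opposite strand: COL10A1 overlaps NT5DC1, and how strand was handled in counting is not stated.

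All collagen chains together took 3.14%, 3.19%, 3.74% and 3.24% of muscle counts (ART-Normal 1 to 4) and 3.71% and 3.81% (Control-AI 2 and 4). In liver the same shares were 0.171%, 0.202%, 0.207%, 0.245%, 0.176% and 0.171%. The summed level was 33002 ± 3236 CPM in muscle and 2053 ± 290 CPM in liver (SD, n = 6), and within a fetus it was 12.8 to 21.1 times as high in muscle, with a median of 16.1. In whole tissue, fewer cells of a type and less RNA per cell cannot be told apart.

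**Figure D1:**
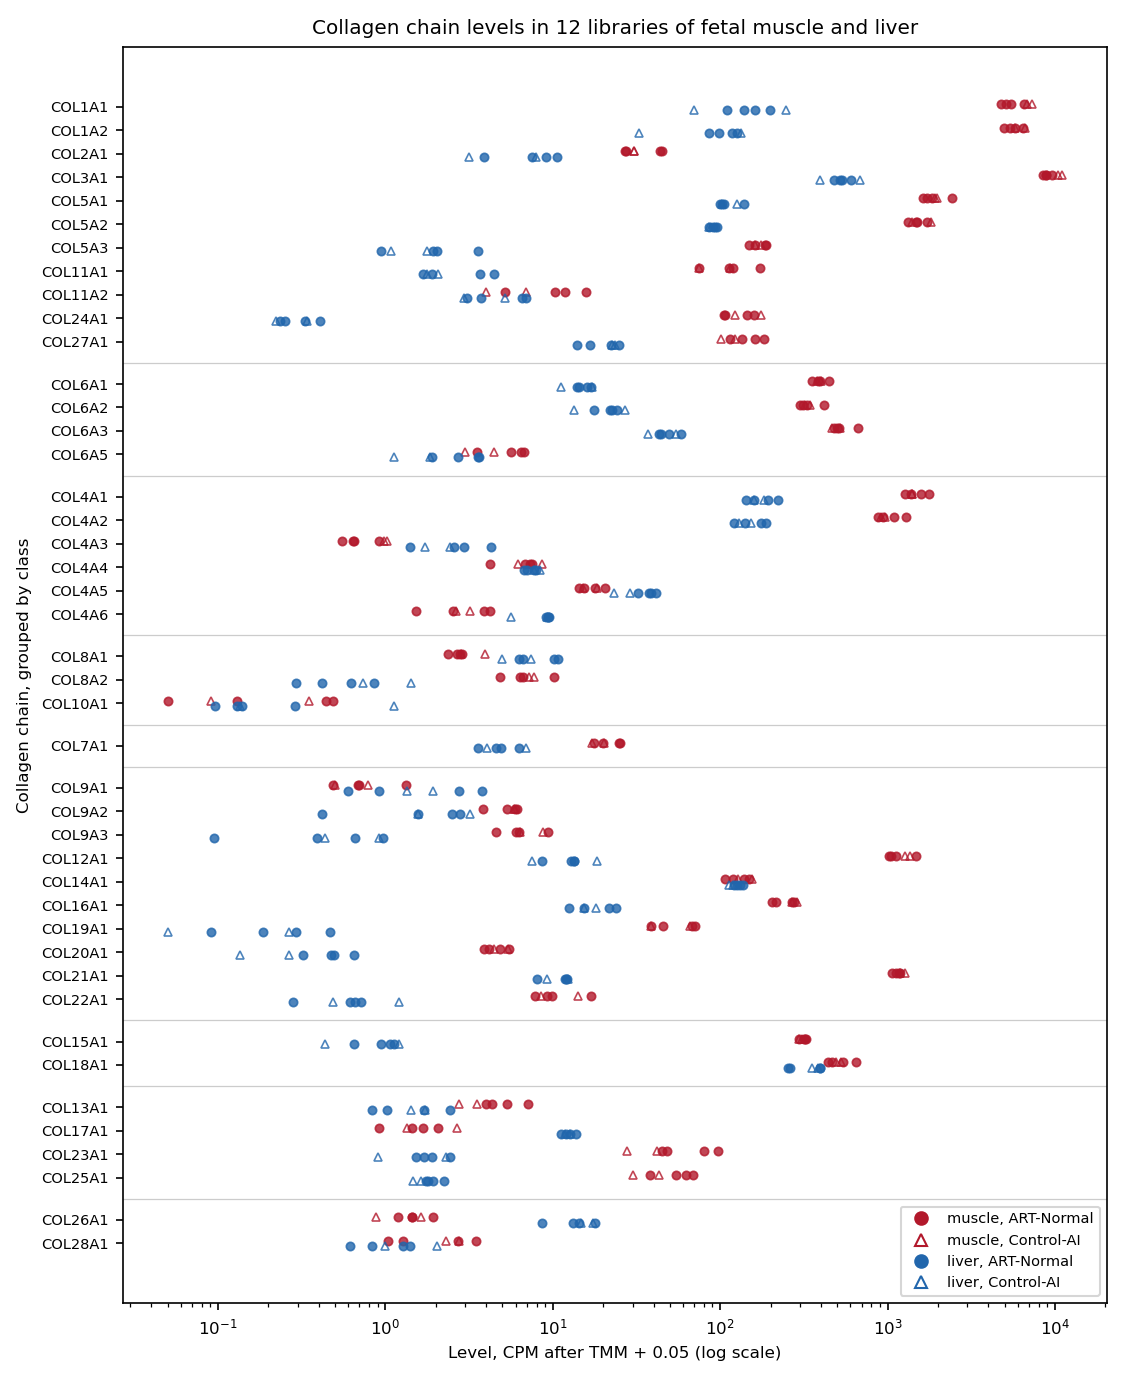
Level of each of the 43 collagen chains in CPM after TMM, with 0.05 CPM added so that zeros can be drawn, on a log axis. Each symbol is a library (red, muscle; blue, liver; filled circles, ART-Normal; open triangles, Control-AI), and chains are grouped by class from fibrillar at the top to other at the bottom. Red and blue stand apart for most fibrillar chains and the order is turned for COL4A3, COL4A5, COL4A6, COL8A1, COL17A1 and COL26A1.

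The first question was how the 2 tissues differed. After a filter of at least 5 CPM in every library of a tissue, 32 of the 43 chains were tested with edgeR's quasi-likelihood test and Benjamini-Hochberg adjustment over 12449 genes, with conception group as a covariate. Of these, 26 were higher and 4 were lower in muscle at an adjusted p of 0.05. The background was high, since 81.5% of all genes tested passed, 40.7% of them higher and 40.8% lower in muscle. As a description, 21 of 32 chains were higher in muscle by a log2 fold change of 3 or more, which 8.84% of all genes reached, and 1 was lower by that much, which 7.61% reached. The median log2 fold change of muscle over liver was 4.05 for the chains tested and -0.01 for all genes. The filter keeps a chain that is high in 1 tissue alone, so these counts cover the tested chains and not all 43, and the size of the differences depends on it. With at least 10 counts required in every library instead, 32 chains were tested, COL15A1, COL19A1 and COL24A1 were no longer among them, 25 were higher and 5 lower in muscle, and their median was 2.90. Without the filter all 43 were tested, and 33 were higher and 7 lower in muscle, against 35.2% and 34.6% of the 18749 genes in that test.

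Type I collagen, the main fibril of tendon, bone and scar, was far higher in muscle. COL1A1, which codes for the alpha 1 chain and lies on chromosome 19 from 36457701 to 36475647 (ARS-UCD1.2, as for all positions here), had muscle levels of 4756, 5104, 6509 and 5491 CPM (ART-Normal 1 to 4), 7278 CPM (Control-AI 2) and 6769 CPM (Control-AI 4). Its liver levels, in the same order of fetuses, were 110, 161, 139, 198, 247 and 69.6 CPM. The lowest muscle value lay far above the highest liver value, and the fitted difference was 38.6-fold (log2 5.27 ± 0.32, SE, adjusted p = 1.11e-09 by edgeR's quasi-likelihood test with Benjamini-Hochberg adjustment, as for all adjusted p-values below). COL1A2, the alpha 2 chain that pairs with it in the type I helix, had 4945, 5426, 6460, 5746, 5780 and 6602 CPM in muscle and 86.0, 118, 97.8, 126, 133 and 32.5 CPM in liver. It was 59.2-fold higher in muscle (log2 5.89 ± 0.34, adjusted p = 6.71e-10). After TMM, the widest spread within liver was between the controls, with Control-AI 2 highest and Control-AI 4 lowest for both chains. The TMM factor was 0.75 for Control-AI 2 liver and 0.97 to 1.04 for the other livers. That Control-AI 2 was highest depends on this factor.

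Type III collagen, which forms the fine reticular fibrils of liver and of the sheaths of muscle, differed less. COL3A1 had 8808, 8894, 9583, 8543, 10393 and 11063 CPM in muscle and 480, 536, 520, 604, 684 and 393 CPM in liver, in the order ART-Normal 1 to 4 and then Control-AI 2 and 4, which is kept below. Muscle was 17.7-fold higher (log2 4.15 ± 0.21, adjusted p = 1.47e-10). The interval of this log2 fold change, 3.70 to 4.59, did not reach that of COL1A2, 5.16 to 6.61, and touched that of COL1A1, 4.59 to 5.95. COL3A1 and COL5A2 are neighbours on chromosome 2, facing each other with 16464 bp between their ends.

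Type V collagen is built into type I fibrils and limits their width. COL5A1 had 1635, 1714, 2417, 1833, 1924 and 1977 CPM in muscle and 105, 100, 102, 138, 125 and 103 CPM in liver. COL5A2 had 1480, 1496, 1711, 1324, 1394 and 1811 CPM in muscle and 90.3, 86.1, 93.2, 95.3, 85.4 and 88.3 CPM in liver. These 2 chains had nearly the same fold, 17.1 each, with log2 values of 4.09 ± 0.15 and 4.10 ± 0.12. COL5A3, the chain of a rarer form of type V, had 161, 149, 186, 187, 161 and 175 CPM in muscle and 1.89, 0.888, 1.98, 3.52, 1.73 and 1.03 CPM in liver. It was 93.9-fold higher in muscle (log2 6.55 ± 0.27, adjusted p = 2.04e-11), and its log2 interval, 5.97 to 7.14, lay above those of COL5A1, 3.76 to 4.42, and COL5A2, 3.83 to 4.36.

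The other fibrillar chains were also higher in muscle where tested, which made 10 of 10 tested fibrillar chains of 11. COL24A1, a fibrillar chain known from forming bone, had 105 to 174 CPM in muscle (median 134) and 0.172 to 0.355 CPM in liver (median 0.243), with 4 to 16 counts per liver library. Its fold was the largest of all chains tested, at log2 9.0 ± 0.21 (adjusted p = 1.53e-13), and rests on those few liver counts. COL11A1, a type XI chain found in cartilage fibrils and in other connective tissue, ranged from 74.9 to 172 CPM in muscle and from 1.62 to 4.4 CPM in liver, and differed by a log2 fold change of 5.47 ± 0.29. COL27A1 differed by 2.72 ± 0.18 and COL2A1, the main chain of cartilage, by 2.29 ± 0.26. COL2A1 had 26.9 to 45.1 CPM in muscle, with a mixed picture among 11 chondrocyte markers. ACAN, HAPLN1 and EPYC stayed under 1 CPM in all 12 libraries, MATN4 was at 1.13 to 8.49 CPM and SOX9 at 12.5 to 14.9 CPM in muscle, and CNMD was at 34.9 CPM in the muscle and 14.9 CPM in the liver of Control-AI 2 and at or under 1.06 CPM in the other libraries. COL11A2 missed the filter, at 3.95 to 15.8 CPM in muscle and 2.89 to 6.86 CPM in liver, and these ranges overlapped.

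Type VI collagen binds the basement membrane of muscle fibers to the matrix around it, and its loss causes muscle disease. COL6A1 had 394, 384, 444, 353, 400 and 380 CPM in muscle and 13.8, 14.3, 16.9, 15.9, 17.2 and 11.1 CPM in liver. COL6A2 had 331, 299, 415, 313, 343 and 320 CPM in muscle and 17.5, 22.6, 22, 24.2, 27.1 and 13.4 CPM in liver. COL6A3 had 476, 514, 667, 498, 517 and 465 CPM in muscle and 43.4, 49.5, 44.5, 58.3, 54.2 and 37.1 CPM in liver. All 3 were higher in muscle in every fetus, by a log2 fold change of 4.73 ± 0.12 for COL6A1, 4.00 ± 0.17 for COL6A2 and 3.45 ± 0.13 for COL6A3, so the chains of the same filament did not differ between tissues to the same extent. COL6A5, an alternative chain that can take the place of COL6A3, had 6.43, 5.56, 6.65, 3.47, 2.93 and 4.43 CPM in muscle and 3.59, 3.51, 2.66, 1.86, 1.08 and 1.80 CPM in liver. It was tested only without the filter, where it was higher in muscle by 1.07 ± 0.26.

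The chains of type IV collagen did not all differ in the same direction. Its 6 genes lie as 3 head-to-head pairs, and the members of a pair start close together and are read away from each other. COL4A1 and COL4A2, the chains of nearly all basement membranes, lie on chromosome 12 from 84863917 to 84995777 and from 84996073 to 85154028, with 295 bp between them. COL4A1 had 1274, 1390, 1777, 1574, 1392 and 1399 CPM in muscle and 142, 160, 194, 223, 183 and 160 CPM in liver. COL4A2 had 882, 941, 1294, 1097, 919 and 967 CPM in muscle and 120, 140, 174, 188, 129 and 152 CPM in liver. Both were higher in muscle, by log2 3.05 ± 0.14 and 2.75 ± 0.14.

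COL4A5 and COL4A6, chains of the basement membranes of kidney, lens and smooth muscle, lie on chromosome X with 1294 bp between them and went the other way. COL4A5 had 15.3, 14.4, 17.9, 20.5, 18.3 and 15.1 CPM in muscle and 32.4, 37.3, 38.8, 41.1, 28.9 and 23.2 CPM in liver. COL4A6 had 1.47, 4.17, 2.48, 3.82, 3.16 and 2.60 CPM in muscle and 9.11, 9.28, 9.41, 9.27, 9.25 and 5.58 CPM in liver. All liver values lay above all muscle values for both chains, with log2 fold changes of muscle over liver of -0.97 ± 0.13 (adjusted p = 8.1e-06) and -1.56 ± 0.23 (adjusted p = 2.25e-05).

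COL4A3 and COL4A4, which join COL4A5 in the filter of the kidney glomerulus, share chromosome 2 with 248 bp between them. COL4A4 had 4.17, 6.73, 7.26, 7.49, 8.57 and 6.18 CPM in muscle and 6.94, 6.73, 7.91, 7.65, 7.66 and 8.37 CPM in liver. It did not pass the threshold (log2 -0.17, interval -0.52 to 0.18, adjusted p = 0.338). COL4A3 had 0.595, 0.501, 0.870, 0.595, 0.977 and 0.936 CPM in muscle and 2.53, 1.35, 4.24, 2.91, 2.38 and 1.67 CPM in liver. Every liver value of COL4A3 lay above every muscle value, and without the filter its log2 fold change was -1.74 ± 0.35 (adjusted p = 3.65e-04). In that test COL4A4 was at -0.16 (interval -0.53 to 0.21). The partners of this pair thus had the same sign, but only COL4A3 passed, while both partners of the other pairs passed in the same direction.

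Among the 10 fibril-associated chains, 6 were tested and 5 were higher in muscle. COL12A1, which coats type I fibrils in tendon and muscle sheaths, had a lowest, median and highest level of 1014, 1197 and 1474 CPM in muscle and 7.43, 13.04 and 18.4 CPM in liver, a log2 fold change of 6.63 ± 0.24. COL21A1, a chain described in vessel walls, was 1056, 1174 and 1264 CPM in muscle and 8.02, 11.9 and 12.3 CPM in liver, a log2 fold change of 6.74 ± 0.15. COL19A1, a chain made by differentiating muscle cells, was 38.4, 55.7 and 70.3 CPM in muscle and 0, 0.176 and 0.414 CPM in liver, where a library held 0 to 11 counts. Its log2 fold change was 8.25 ± 0.37. COL16A1 differed by 3.83 ± 0.17 and COL22A1, which marks the junction of muscle with tendon, by 4.14 ± 0.31.

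COL14A1 was the exception in this class. This fibril-associated chain had 107 to 155 CPM in muscle (median 133) and 113 to 137 CPM in liver (median 124), so the tissues overlapped. Its log2 fold change was 0.09, with an interval of -0.12 to 0.30 (adjusted p = 0.401), which leaves room for a difference of up to 0.30 and not for one of the size seen for the other tested chains of the class. As a share of all collagen counts, COL14A1 was 0.404% ± 0.057 in muscle and 6.17% ± 0.94 in liver (SD, n = 6).

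The 2 multiplexins, which are proteoglycan collagens of basement membranes, differed from each other. COL15A1, a basement membrane chain of muscle and capillaries, was 296 to 324 CPM in muscle (median 312) and 0.386 to 1.16 CPM in liver (median 0.955), with a log2 fold change of 8.50 ± 0.18 (adjusted p = 8.26e-14). COL18A1, the precursor of endostatin, was 439 to 647 CPM in muscle (median 508) and 255 to 394 CPM in liver (median 371). It was higher in muscle by only 1.52-fold (log2 0.61 ± 0.14, adjusted p = 0.00124), and the interval of 0.30 to 0.91 was far from that of COL15A1, 8.11 to 8.89. COL15A1 varied least among the muscle libraries of all 43 chains, with a coefficient of variation of 3.98%.

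Of the 4 transmembrane collagens, COL23A1 and COL25A1 were higher in muscle and COL17A1 was lower. COL25A1, which muscle needs to be innervated by motor axons, had 30.1 to 68.8 CPM in muscle and 1.42 to 2.20 CPM in liver, a log2 fold change of 4.8 ± 0.18. COL23A1 had 27.7 to 97.6 CPM in muscle and 0.859 to 2.39 CPM in liver, a log2 fold change of 5.04 ± 0.28. COL17A1, a chain of the hemidesmosomes that anchor epithelia, had 0.870 to 2.63 CPM in muscle (median 1.51) and 11.1 to 13.8 CPM in liver (median 12.3). Its log2 fold change was -2.94 ± 0.22 (adjusted p = 1.17e-08). The skin keratins KRT5, KRT14 and KRT15 were at or under 0.202 CPM in all libraries, and TP63, the other gene of that list, was at 31.7 to 46.9 CPM in muscle and at or under 0.289 CPM in liver. COL13A1, which clusters receptors at the nerve-muscle synapse, missed the filter at 2.71 to 7.09 CPM in muscle and 0.777 to 2.37 CPM in liver.

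COL26A1 showed the largest difference in favor of liver. It had 0.827 to 1.87 CPM in muscle (median 1.39) and 8.60 to 17.7 CPM in liver (median 14.6), a log2 fold change of -3.36 ± 0.23 (adjusted p = 4.04e-09). Type VII collagen, the anchoring fibril under epithelia, was higher in muscle (COL7A1, log2 2.04 ± 0.18). The 2 chains of type VIII, a network collagen of vessels and the cornea, were listed in opposite order. COL8A2 was higher in muscle by 3.52 ± 0.32, and COL8A1 had 2.33 to 3.86 CPM in muscle and 4.94 to 10.6 CPM in liver, with a log2 fold change of -1.40 ± 0.23 in the test without the filter.

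The 11 chains that missed the filter were COL4A3, COL6A5, COL8A1, COL9A1, COL9A2, COL9A3, COL10A1, COL11A2, COL13A1, COL20A1 and COL28A1. In the test without a filter, 10 of them passed: COL4A3, COL8A1 and COL9A1 were lower in muscle and the other 7 were higher. The 3 chains of type IX, a fibril-associated collagen of cartilage, were listed with unlike log2 fold changes. These were -1.38 ± 0.47 for COL9A1, 1.48 ± 0.37 for COL9A2 and 3.78 ± 0.48 for COL9A3. COL9A1 was low and overlapped between tissues, at 0.435 to 1.28 CPM in muscle (6 to 23 counts) and 0.552 to 3.71 CPM in liver. It was higher in muscle in 2 of 6 fetuses. COL9A3 had 2 to 20 counts per liver library. COL9A1 lies tail to tail with COL19A1 on chromosome 9, with 6563 bp between them. COL10A1, the chain of hypertrophic cartilage, was at 0 to 0.435 CPM in muscle and 0.0460 to 1.08 CPM in liver, and its highest value was in Control-AI 2 liver (15 counts against 1 to 7 in the other livers). NT5DC1 on the opposite strand had 8.34 to 13.3 CPM in muscle and 45.2 to 56.8 CPM in liver, and its part in the COL10A1 counts was not tested.

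**Figure D2:**
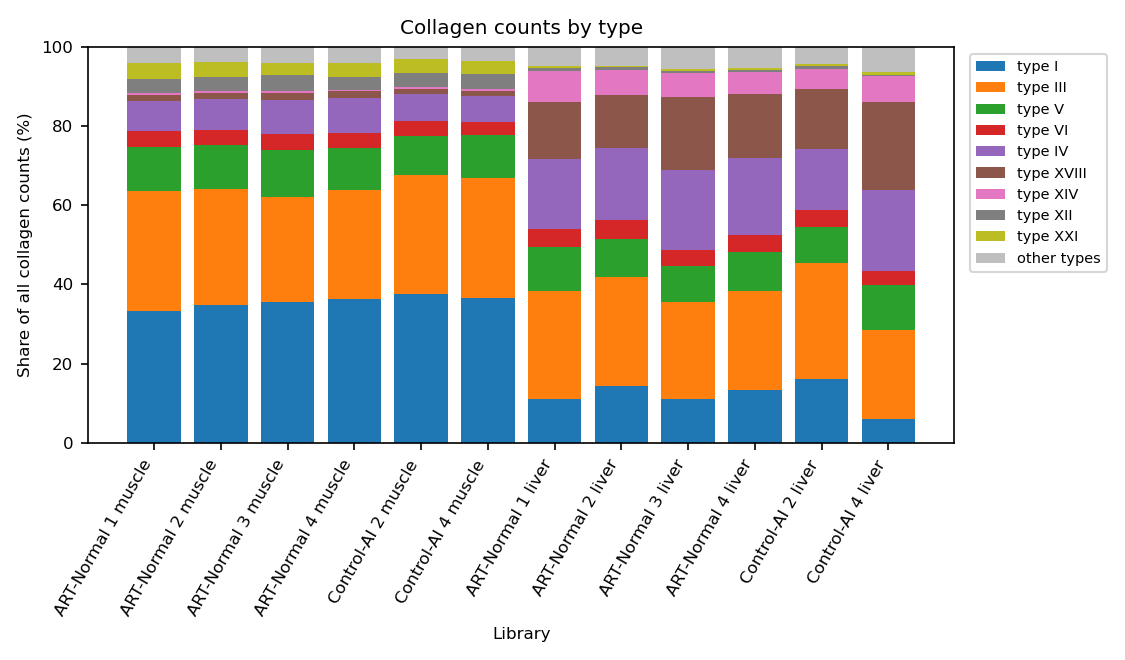
Share of all collagen counts in each library taken by 9 collagen types, in percent, with the remaining types in grey. The bars add to 100%. Type I (blue) takes 33.3% to 37.6% in muscle and 5.91% to 16.2% in liver, and types IV (purple), XIV (pink) and XVIII (brown) take larger shares in liver.

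The make-up of the collagen counts differed between tissues. Type I held 35.7% ± 1.5 of collagen counts in muscle and 12% ± 3.6 in liver, and type III held 29% ± 1.6 and 26% ± 2.4 (SD, n = 6 each). The type I ranges, 33.3% to 37.6% and 5.91% to 16.2%, did not overlap, while those of type III, 26.4% to 30.3% and 22.7% to 29.2%, did. Type IV went from 7.63% ± 0.89 in muscle to 18.6% ± 1.9 in liver, and type XVIII from 1.57% ± 0.17 to 16.7% ± 3.2. Types V and VI took near equal shares, at 11% ± 0.6 and 10.01% ± 0.92 for type V and 3.82% ± 0.37 and 4.20% ± 0.33 for type VI. Types XII and XXI went from 3.67% ± 0.25 and 3.54% ± 0.30 in muscle to 0.596% ± 0.159 and 0.534% ± 0.085 in liver. Shares of one library add to 100%, so a larger share of one type lowers the others. A share of counts also depends on the length of the transcripts made, which was not measured in either tissue.

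Ratios of chain counts within a library need no scaling between libraries, and 8 were compared between tissues over the 6 fetuses. They were chosen after the values were seen and are a description without a test. COL1A2 over COL1A1, which share a helix in a fixed proportion, was 0.794 to 1.06 in muscle (median 1.02) and 0.467 to 0.782 in liver (median 0.673). The ranges did not overlap, and the ratio was higher in muscle in 6 of 6 fetuses. COL3A1 over COL1A1 was 1.43 to 1.85 in muscle (median 1.595) and 2.77 to 5.64 in liver (median 3.54), also without overlap. The highest of these liver ratios was in Control-AI 4 and the lowest in Control-AI 2.

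In type VI, COL6A2 over COL6A1 was 0.779 to 0.934 in muscle and 1.21 to 1.58 in liver. COL6A3 over COL6A1 was 1.21 to 1.502 in muscle and 2.63 to 3.67 in liver. Neither ratio overlapped between tissues, and liver was higher in 6 of 6 fetuses. In type V, COL5A3 over COL5A1 was 0.0772 to 0.102 in muscle and 0.00888 to 0.0255 in liver, whereas COL5A2 over COL5A1 overlapped, at 0.708 to 0.916 and 0.682 to 0.914. COL4A2 over COL4A1 overlapped in range, at 0.660 to 0.728 in muscle and 0.708 to 0.951 in liver, but was higher in liver in all 6 fetuses. COL4A6 over COL4A5 was higher in muscle in 1 of 6 fetuses and overlapped, at 0.0959 to 0.291 and 0.225 to 0.320.

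**Figure D3:**
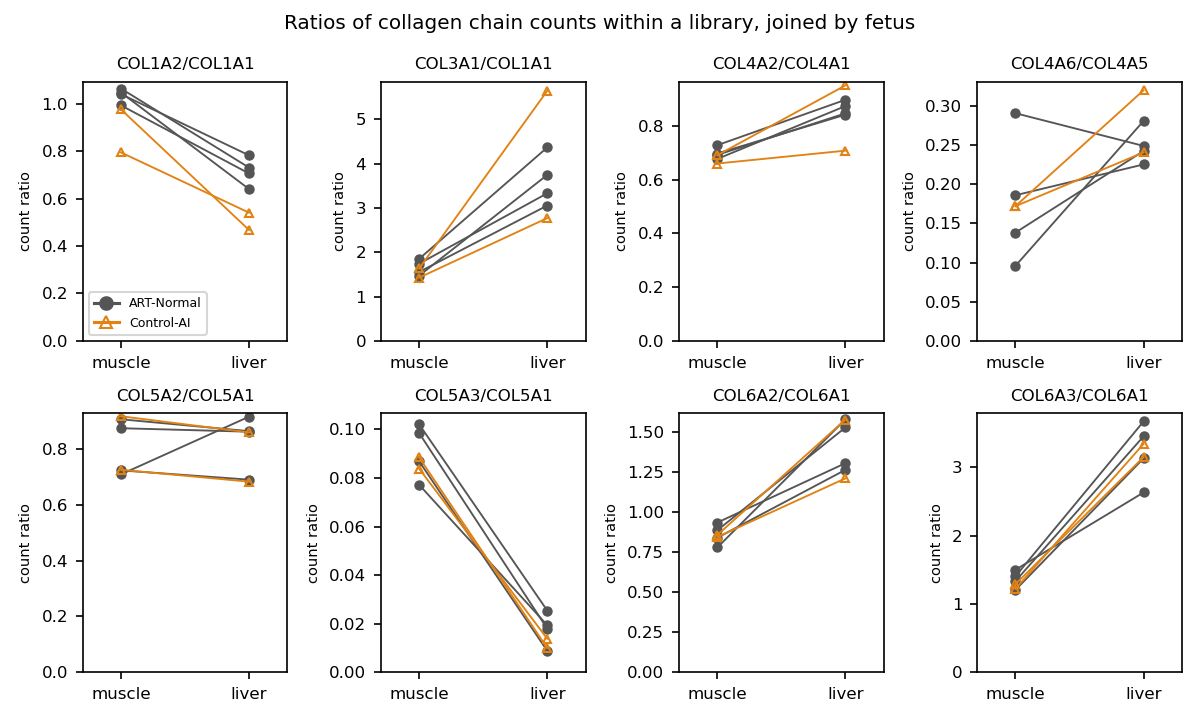
Ratio of the counts of 2 collagen chains within a library, in 8 panels, each with muscle on the left and liver on the right and a line for each of the 6 fetuses (grey circles, ART-Normal; orange triangles, Control-AI). Axes start at 0. All lines run in the same direction for 6 ratios, and for COL5A2/COL5A1 and COL4A6/COL4A5 the line of 1 fetus runs against the other 5.

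Genes that make, cut and bind collagen were counted from lists chosen with earlier results known. Of 22 genes of collagen synthesis and folding, 16 were higher and 5 lower in muscle, against 40.7% and 40.8% of all genes tested. SERPINH1, the collagen chaperone, was higher by a log2 fold change of 1.57 and PLOD2, a lysyl hydroxylase, by 3.32. P4HB, a disulfide isomerase that is also a subunit of prolyl hydroxylase, was lower, with a log2 fold change of -1.85, at 263 to 334 CPM in muscle and 981 to 1201 CPM in liver. Of 14 tested genes of propeptide cleavage and crosslinking, 9 were higher and 3 lower, with LOX higher by 3.97 and LOXL4 lower by 3.72. Of 10 tested genes of collagen breakdown and uptake, 9 were higher and 0 lower, led by FAP at 8.17 and MMP16 at 5.70. Of 13 fibril-associated partners, 11 were higher and THBS1 was lower. Of 5 tested collagen receptors other than integrins, DDR1 and DDR2 were higher and GP6, ADGRG1 and ADGRG6 lower.

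Markers of cells that make collagen differed between the tissues in both directions. Of 10 fibroblast markers, 9 were higher in muscle and 0 lower, and their summed level was 2190 to 2949 CPM in muscle and 231 to 337 CPM in liver. PDGFRB, shared by fibroblasts, pericytes and stellate cells, was 106 to 131 CPM in muscle and 109 to 170 CPM in liver. Of 8 markers of hepatic stellate cells, the vitamin A-storing collagen producers of liver, 7 were lower in muscle, with a sum of 57.1 to 76.7 CPM in muscle and 343 to 432 CPM in liver. The 6 tendon markers summed to 175 to 339 CPM in muscle, and THBS4, at 108 to 234 CPM, made up most of this sum. TNMD was at 2.06 to 11.2 CPM and SCX at 0.873 to 3.01 CPM in muscle, and 4 of 4 tested genes were higher there. Of 8 endothelial markers 6 were higher and VWF lower in muscle, and their sum was 771 to 870 CPM in muscle and 514 to 564 CPM in liver. Of 4 smooth muscle markers 3 were higher and MYH11 lower, at sums of 285 to 441 and 52.9 to 128 CPM. How far cell makeup accounts for the differences in collagen was not tested.

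Markers of cartilage, bone, epithelium and blood cells were counted as well. Of 11 chondrocyte markers 3 were tested, with SOX9 higher and SOX5 and SOX6 lower in muscle, at sums of 162 to 248 and 344 to 611 CPM. Of 7 osteoblast markers only ALPL was tested and was higher in muscle, at sums of 15.5 to 25.5 and 10.6 to 21.1 CPM. TP63 was the only tested skin gene of 4 and MSLN the only tested mesothelium gene of 4, and both were higher in muscle. All 6 erythroid markers were higher in liver, which makes blood in the fetus, at sums of 6.71 to 17.9 CPM in muscle and 4192 to 4828 CPM in liver.

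The second question was whether the chains differed by conception. In muscle, 32 chains were tested among 11695 genes, and 0 chains and 1 gene (0.00855%, ANKRD1, named after its value was seen) passed an adjusted p of 0.05 in edgeR's quasi-likelihood test. At an unadjusted p under 0.05 there were 4 of 32 chains and 9.19% of all genes. With positive values for a higher level in ART-Normal, the median log2 fold change was 0.025 for the chains and 0.00069 for all genes, with 17 chains above 0 and 15 below. The groups did not overlap for 4 of 32 chains, against 15.9% of all genes. By DESeq2's Wald test and by edgeR's likelihood ratio test 0 chains passed as well, while 106 and 120 genes did.

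COL23A1 had 48.1, 45.2, 97.6, 80.5, 27.7 and 41.7 CPM, in the order of fetuses used above. All 4 ART-Normal values lay above both controls, with a log2 fold change of 0.97 ± 0.31 (interval 0.28 to 1.66, unadjusted p = 0.0107, adjusted p = 0.386 by edgeR's quasi-likelihood test). Leaving out Control-AI 4 raised this fold to 1.31, and leaving out Control-AI 2 lowered it to 0.70. Such fits have a lone control, so spread among controls is not measured and no test result is drawn from them. Control-AI 2, whose libraries stood apart, is the control that remains in the fit with the larger value. COL25A1 had 54.6, 62.1, 68.8, 37.9, 30.1 and 42.9 CPM. ART-Normal 4 lay below Control-AI 4 in COL25A1, and the log2 fold change was 0.62 ± 0.24 (adjusted p = 0.465). With Control-AI 2 as the lone control it rose to 0.90, and with Control-AI 4 in that place it fell to 0.38.

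COL11A2, a type XI chain, had 5.16, 11.7, 15.8, 10.3, 6.84 and 3.95 CPM. ART-Normal 1 lay between the controls, and the log2 fold change was 1.02 ± 0.41 (adjusted p = 0.488), 1.44 without Control-AI 2 and 0.66 without Control-AI 4. COL27A1 had 136, 115, 183, 162, 101 and 122 CPM, with ART-Normal 2 between the controls, and differed by log2 0.42 ± 0.18 (adjusted p = 0.521), 0.28 without Control-AI 2 and 0.58 without Control-AI 4. COL11A1 had 75.1, 119, 172, 113, 74.9 and 114 CPM, and its fold of 0.34 (log2, interval -0.27 to 0.96) was 0.062 when Control-AI 2 was left out and 0.69 when Control-AI 4 was. ART-Normal 3 was the highest muscle library in COL11A1, COL11A2, COL23A1, COL25A1 and COL27A1. This was not particular to these chains. ART-Normal 3 was also highest in COL4A1 (1777 CPM), COL5A1 (2417 CPM), COL6A3 (667 CPM), COL12A1 (1474 CPM) and COL18A1 (647 CPM), among others. A control was highest in COL1A1, COL1A2, COL3A1 and COL16A1, among others. Of the 6 tendon markers, ART-Normal 3 was highest in TNMD (11.2 CPM), THBS4 (234 CPM) and FMOD (73.2 CPM) and lowest in EGR1 (5.83 CPM). It was within the range of the other muscle libraries in MKX (13.1 CPM) and SCX (2.04 CPM). The part of tendon cells in these values was not tested.

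COL1A1, COL3A1 and COL21A1 were lower in every ART-Normal muscle than in both controls, without passing the test. With COL23A1 they are the 4 of 32 tested chains whose groups did not overlap in muscle, against 15.9% of all genes. COL1A1, with the values given above, lay at 4756 to 6509 CPM in ART-Normal against 6769 and 7278 CPM for the controls, so the groups did not overlap. Its log2 fold change was -0.36 ± 0.17 (interval -0.74 to 0.02, adjusted p = 0.569), -0.31 without Control-AI 2 and -0.40 without Control-AI 4. COL3A1 lay at 8543 to 9583 CPM against 10393 and 11063 CPM, with a log2 fold change of -0.25 ± 0.15 (adjusted p = 0.658), -0.31 without Control-AI 2 and -0.20 without Control-AI 4. COL21A1 also did not overlap, with 1056 to 1185 CPM against 1186 and 1264 CPM, at -0.11 ± 0.14. COL1A2, the partner of COL1A1, overlapped and had -0.13 (interval -0.50 to 0.24).

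COL9A3 had 5.95, 4.51, 6.26, 9.32, 6.31 and 8.66 CPM (log2 -0.20, interval -0.84 to 0.43), COL16A1 had 204, 215, 278, 269, 268 and 289 CPM (-0.20, interval -0.55 to 0.15), and COL24A1 had 160, 107, 145, 105, 123 and 174 CPM (-0.19, interval -0.64 to 0.26). The groups overlapped for all 3. Without Control-AI 4, COL9A3 was at 0.058, COL16A1 at -0.14 and COL24A1 at 0.092, and without Control-AI 2 they were at -0.42, -0.26 and -0.43. The 10 fibroblast markers summed to 2190 to 2565 CPM in ART-Normal muscle, against 2836 and 2949 CPM for the controls, which did not overlap either, with 0 of the 10 past the threshold. DCN (857 to 984 against 1084 and 1109 CPM) and LUM (647 to 852 against 1044 and 1087 CPM) made up most of this sum. By gene, the groups did not overlap for DCN, LUM, OSR1 and OSR2, against 15.9% of all genes tested in muscle. They overlapped for PDGFRA, PDGFRB, THY1, DPT, PI16 and TCF7L2. The 13 fibril-associated partners summed to 7371 to 8574 CPM in ART-Normal, against 9822 and 9921 CPM for the controls, again with 0 past the threshold. POSTN (1953 to 2630 against 3106 and 3489 CPM) and SPARC (2208 to 2392 against 3056 and 2532 CPM) had the largest levels. POSTN, SPARC, THBS2 and MFAP5 were lower in every ART-Normal muscle than in both controls, and COLQ was higher. The groups overlapped for FN1, TNXB, THBS1, TGFBI, FBN1, FBN2, MFAP2 and COLEC12, and did not overlap for 15.9% of all genes. The part of fibroblast number in COL1A1 and COL3A1 was not tested. The intervals of the type IV, V and VI chains tested in muscle all contained 0, with fold changes from -0.19 for COL4A4 to 0.17 for COL4A2.

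**Figure D4:**
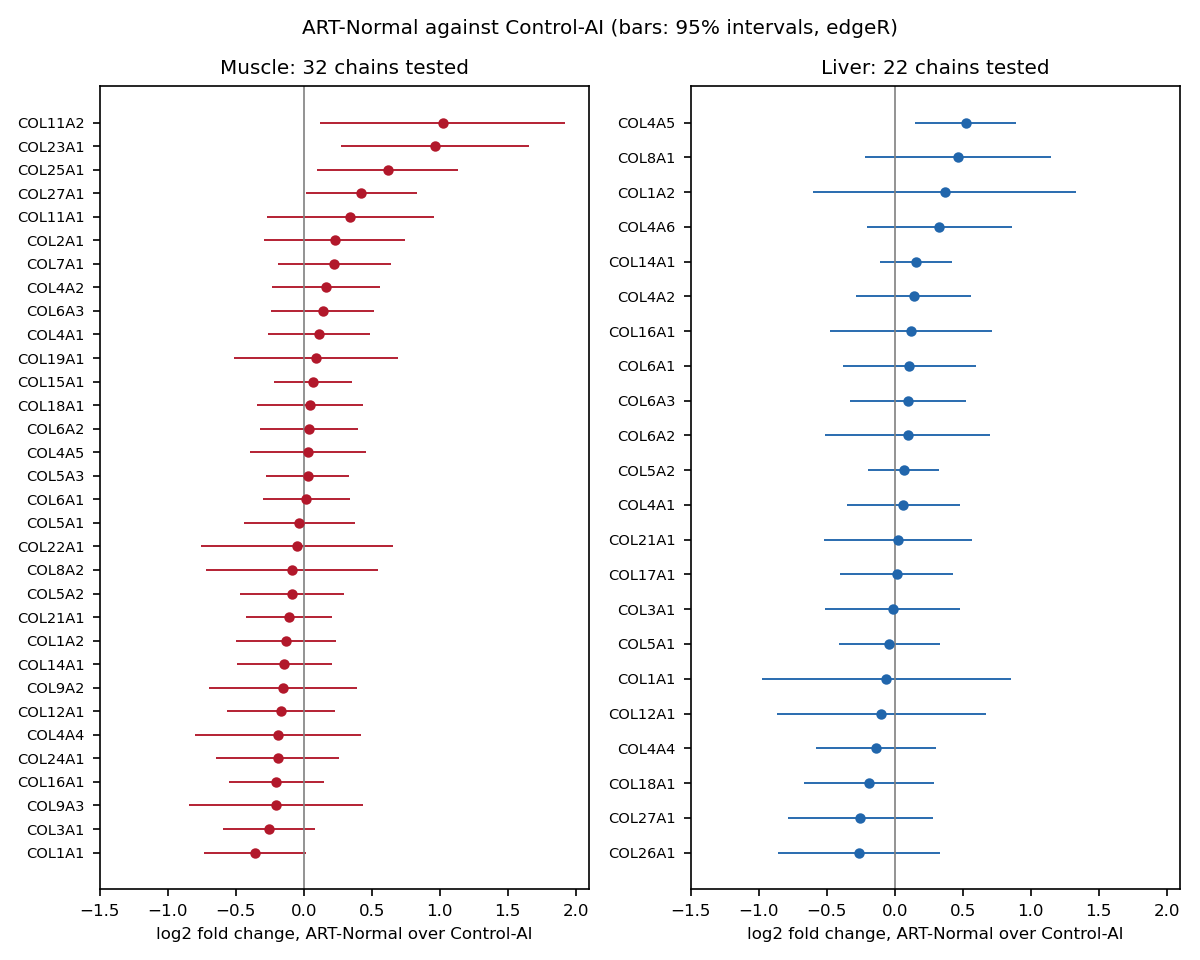
Log2 fold change between conception groups (ART-Normal divided by Control-AI) for each tested chain in muscle (left, 32 chains) and liver (right, 22 chains), with 95% intervals from edgeR's quasi-likelihood fit, sorted by value. COL11A2, COL23A1, COL25A1 and COL27A1 in muscle and COL4A5 in liver have intervals clear of 0, before adjustment for the number of genes tested.

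**Figure D5:**
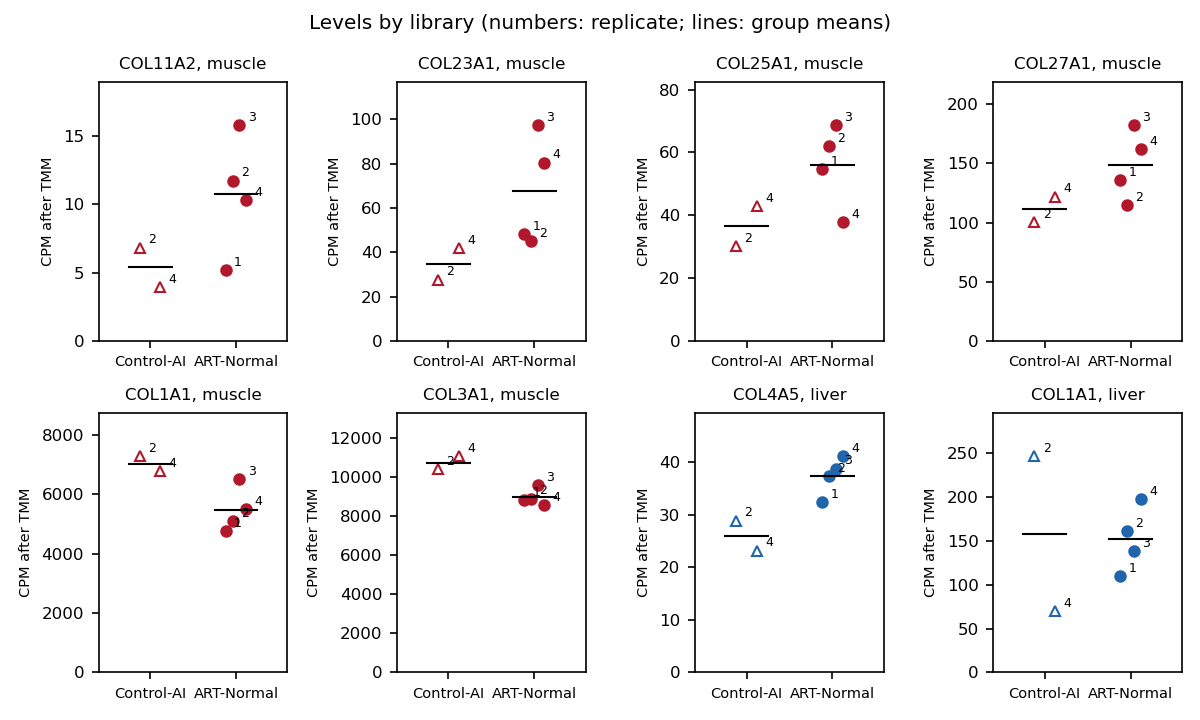
Levels in CPM after TMM of chains in Control-AI (open triangles, n = 2) and ART-Normal (filled circles, n = 4) libraries, with replicate numbers and a line at each group mean, for 6 chain panels in muscle (red) and 2 in liver (blue), each axis starting at 0. COL23A1, COL1A1 and COL3A1 in muscle and COL4A5 in liver show no overlap of groups, and COL1A1 in liver has its highest and lowest value in the 2 controls.

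In liver, 22 chains were tested among 11304 genes, and 0 chains and 0 genes (0.0%) passed the adjusted threshold of edgeR's quasi-likelihood test. At an unadjusted p under 0.05 there were 1 chain and 8.39% of all genes (948), and the groups did not overlap for 2 chains and 18.4% of genes. DESeq2's Wald test called 56 genes and the likelihood ratio test 89, and 0 of these were chains. The median log2 fold change was 0.07 for the chains and 0.01 for all genes, with 14 chains above 0 and 8 below. Scaling by library size alone moved the median of all genes to 0.21 and that of the chains to 0.28.

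COL4A5, with 32.4, 37.3, 38.8 and 41.1 CPM in ART-Normal livers, against 28.9 and 23.2 CPM for the controls, was the chain with an unadjusted p under 0.05. Its log2 fold change was 0.52 ± 0.17 (interval 0.15 to 0.89, adjusted p = 0.513), 0.70 without Control-AI 2 and 0.37 without Control-AI 4. COL4A6, its neighbour, lay at 9.11 to 9.41 CPM for ART-Normal, at 9.25 CPM for Control-AI 2 and at 5.58 CPM for Control-AI 4, so the difference of 0.33 (interval -0.21 to 0.86) rested on Control-AI 4 and was -0.0049 without it and 0.74 without Control-AI 2. COL14A1 also did not overlap, with 137, 121, 127 and 132 CPM against 119 and 113 CPM, at 0.15 ± 0.12 (adjusted p = 0.654), 0.21 without Control-AI 2 and 0.11 without Control-AI 4. COL8A1 had 6.58, 10.6, 6.26, 10.2, 7.37 and 4.94 CPM and a difference of 0.46 (interval -0.22 to 1.146), which was 0.79 when Control-AI 2 was left out and 0.19 when Control-AI 4 was.

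After TMM, the controls lay on both sides of ART-Normal for type I collagen in liver, and the place of Control-AI 2 depends on its low TMM factor. COL1A2 lay at 86.0 to 126 CPM for ART-Normal, at 133 CPM for Control-AI 2 and at 32.5 CPM for Control-AI 4. Its log2 fold change of 0.37 (interval -0.60 to 1.33) became 1.73 without Control-AI 2 (adjusted p = 0.135) and -0.32 without Control-AI 4, so its direction depends on which control is used. COL1A1 stood at -0.06 with an interval of -0.98 to 0.85, and COL12A1 at -0.10, with 12.8, 13.3, 8.56 and 13.3 CPM for ART-Normal and 18.4 and 7.43 CPM for the controls. COL12A1 was 0.70 when Control-AI 2 was left out and -0.62 when Control-AI 4 was. A difference of this size was not detectable with 2 such controls.

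Lower in ART-Normal liver on average were COL26A1, COL27A1, COL18A1 and COL4A4, and their groups overlapped. COL26A1 had 8.60, 13.1, 14.4, 17.7, 14.7 and 17.4 CPM (log2 -0.26, interval -0.86 to 0.33), and COL27A1 had 16.6, 13.9, 25, 22.1, 22.6 and 23.4 CPM (-0.25, interval -0.79 to 0.28). COL18A1 had 255, 263, 394, 392, 356 and 386 CPM, with ART-Normal 1 and 2 below and ART-Normal 3 and 4 above the controls, and stood at -0.19 (interval -0.67 to 0.29). COL4A4 stood at -0.14 (interval -0.58 to 0.30). Without Control-AI 2 they were at -0.36 for COL26A1, -0.26 for COL27A1, -0.23 for COL18A1 and -0.19 for COL4A4, and without Control-AI 4 at -0.14, -0.23, -0.14 and -0.076.

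The third question was whether the conception difference was the same in both tissues. The interaction was tested for 36 chains among 12923 genes, and 0 chains and 0 genes passed in edgeR's quasi-likelihood test, with 0 of 36 chains and 5.50% of all genes (711) at an unadjusted p under 0.05. The likelihood ratio test called 98 genes and DESeq2's Wald test 37, again with 0 chains. COL27A1 was at 0.42 in muscle and -0.25 in liver, and its interaction was 0.66 ± 0.32 (interval -0.03 to 1.36, adjusted p = 0.929). COL4A5 was at 0.03 in muscle and 0.52 in liver, with an interaction of -0.50 ± 0.25 (interval -1.04 to 0.04, adjusted p = 0.929). COL8A1 had an interaction of -0.82 ± 0.43 and COL8A2, which was low in liver, of 0.94 ± 0.65 (adjusted p of 0.929 and 0.958). Among chains low in liver, the interaction was -1.19 for COL19A1 (interval -3.87 to 1.49), -0.51 for COL24A1 (interval -1.85 to 0.83) and -0.59 for COL5A3 (interval -1.76 to 0.59). Their intervals were wide, and a difference between tissues in the conception effect was not detectable with these libraries. COL11A2, COL22A1, COL23A1 and COL1A2 stood at 0.71, 0.60, 0.64 and -0.51, and their intervals contained 0.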

How the data were processed

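RNA-seq counts of muscle and liver from 4 ART-Normal and 2 Control-AI fetuses were used. Per the labels, libraries were strand-specific and paired-end (150 bp), and the submitters' processing notes name FastQC 0.11.7, HISAT2 2.1.0, Cufflinks, SAMtools, featureCounts, edgeR 3.24.3 and the build ARS-UCD1.2; the strand setting of the counting is not given in the sources used here. The authors deposited raw read counts per gene, with no normalization, and all 21048 listed lengths equal the whole gene span. For each tissue, 6 columns were matched to samples, and 14 further columns in all were not used. Tables of the authors' comparisons (log2 fold change, log2 CPM, likelihood ratio, p-value and FDR) and kidney libraries were not used here.

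CPM after TMM, log2 fold changes, standard errors, 95% intervals and p-values (two-sided) came from edgeR 4.0.16 under R 4.3.3 (glmQLFit, glmQLFTest, Benjamini-Hochberg over all genes tested, threshold 0.05). Genes entered a test when every library of a group reached 5 CPM. Conception groups were compared within each tissue without covariates. Tissues were compared over 12 libraries with conception group as a covariate, and the interaction used the 4 groups. The procedures were tested on simulated data with 200 changed genes. Alternatives were RLE and library size scaling, the likelihood ratio test, DESeq2 1.42.0 (Wald test), no filter, a minimum of 10 counts per library, a replicate block and leaving out each fetus. Tables and plots used Python 3.11.15, pandas 2.3.3 and Matplotlib 3.10.9.

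Values in every library are given for chains of types I, III, IV, V and VI and for up to 5 tested chains with the largest fold in each direction per comparison of conception groups; other genes are named as examples or from their values. The chains and the gene lists were chosen with earlier results of these data known. Splitting 6 fetuses into 4 and 2 has 15 outcomes, so the smallest p of an exact permutation test would be 0.0667, and no such test was run. Muscle and liver are paired because they come from the same animal: deviations from the group mean correlated between the tissues of a fetus at r of 0.32, 0.07, 0.09 and 0.45 in ART-Normal 1 to 4 and 0.54 in the controls, across genes, which are not independent. No libraries were alike within sampling noise. P-values of the conception comparisons within a tissue measure the spread between these fetuses. The main tissue and interaction fits took the 12 libraries as separate, so their p-values measure spread between libraries and leave out the pairing by fetus.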

Additional observations from a re-analysis of the deposited data

Results flagged for a closer look

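Among the 4 ART-Normal libraries of a tissue, each chain was screened for a library far from the other 3 by Dixon's ratio at the 95% level. Of 86 groups screened, 3 stood out, and chance gives about 1 in 20 groups. COL5A1 had 138 CPM in ART-Normal 4 liver and 100 to 105 CPM in the other 3. COL12A1 had 8.56 CPM in ART-Normal 3 liver and 12.8 to 13.3 CPM in the others. COL21A1 had 8.02 CPM in ART-Normal 2 liver and 11.8 to 12.2 CPM in the others. Each lies in another fetus, and all 3 are in liver.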

How the results depend on the processing

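The 30 chains that differed between tissues numbered 30, with 26 higher and 4 lower in muscle, under RLE, library size alone, the likelihood ratio test, DESeq2 and the fetus as a replicate block, 40 with no filter, and 30 to 32 with a fetus left out. The count minimum of 10 also gave 30, but 25 higher and 5 lower and without COL15A1, COL19A1 and COL24A1, which it does not test. With the fetus as a replicate block, 10558 genes differed between tissues, and the interaction called 0 genes. At an unadjusted p under 0.05 by edgeR's quasi-likelihood test, the interaction with this block had 2 of 36 chains and 1230 of 12923 genes. Without the block these were 0 chains and 711 genes. The counts of chains past the threshold in the conception comparisons were 0 under every alternative that kept both controls. Fits with a lone control were not used for these counts of chains. The folds of COL23A1 and COL25A1 in muscle were largest where Control-AI 2 was that control.

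Counts of all genes moved more. In muscle, 1 gene became 120 with the likelihood ratio test and 106 with DESeq2, and 0 to 1327 with a fetus left out, the highest without Control-AI 4. In liver, 0 genes became 8 with library size alone, 89 with the likelihood ratio test and 56 with DESeq2, and 0 to 830 with a fetus left out, the highest also without Control-AI 4. The interaction went from 0 to 98 and 37 genes with those tests, and to 0 to 232 with a fetus left out. Replicate numbers shared by ART-Normal and Control-AI are only numbers (r of -0.01 and -0.18 in muscle, 0.02 and -0.12 in liver): as a replicate block they gave 90 genes in muscle and 6 in liver, with 0 chains. With a control left out, the lone control is assumed to vary like the other group. The cause of these changes was not tested.

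Named chains in liver that turned direction under another setting were COL4A4 (0.055), COL12A1 (0.19) and COL18A1 (0.0054) with library size alone, and COL12A1 (0.17) with the number block. With a fetus left out, values that turned ranged over -0.42 to 0.058 for COL9A3 and -0.43 to 0.092 for COL24A1 in muscle, over -0.32 to 1.73 for COL1A2, -0.0049 to 0.74 for COL4A6 and -0.62 to 0.70 for COL12A1 in liver, and, for the interaction, over -1.98 to 0.28 for COL1A2, -0.14 to 1.46 for COL11A2, -5.67 to 0.59 for COL19A1, -0.41 to 1.599 for COL23A1 and -1.10 to 0.17 for COL24A1. They turned without Control-AI 4, except COL12A1, which turned without Control-AI 2 and without ART-Normal 3, and COL23A1, which turned without Control-AI 2. No other named chain turned in these alternatives. The summed collagen level stayed at 32303 to 33773 CPM in muscle and 1981 to 2119 CPM in liver with a fetus left out. Depth limits chains under about 1 CPM in liver, such as COL19A1 and COL24A1.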
